A study of Homo sapiens with 6 samples.

Results

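The comparison is between J82 tet-control cells given doxycycline for 6 h and the same line at 0 h, without doxycycline. It holds 2 of the 6 libraries of the series, chosen by their titles, with 1 library in each group. J82 is an established human bladder cancer line. The tet-control line carries a control construct, and the companion tet-ZFP36L1 line carries a doxycycline-inducible ZFP36L1, an RNA-binding protein that shortens the life of mRNAs with AU-rich elements. Cells were grown to 90% confluence and then received doxycycline at 1 µg/mL for 6 or 24 h, or none (0 h). The sources used here do not give what the control construct expresses or whether a line is 1 clone. Each group has no replicate, so no test was run, no p-value is given and the spread between cultures is unknown. Intervals are 95% intervals of counting error only, and reads here carry no molecular identifiers, so they may repeat 1 molecule. The 6 h sample differs from the 0 h sample in drug, in time and in any handling that came with dosing, and these cannot be told apart. In a bulk sample, a change in the kinds of cells and a change in RNA per cell cannot be told apart either.

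Doxycycline is a tetracycline antibiotic that switches on tet-controlled promoters. Tetracyclines also bind bacterial-type ribosomes, and the ribosomes of mitochondria are of that kind, so the drug is known to slow the synthesis of the proteins that mitochondrial DNA encodes. In mammalian cells, stalled mitochondrial function is known to engage the integrated stress response, in which phosphorylation of eIF2 alpha favours translation of the transcription factor ATF4. ATF4 with C/EBP partners then raises genes for amino acid synthesis, amino acid transport and tRNA charging. A change of medium or serum is known to act through several factors. Among them are SRF, which drives actin cytoskeleton genes, and NF-kB, which drives cytokines and its own inhibitors. None of these gene sets is assigned here to the drug or to handling, which the design cannot tell apart.

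Some gene sets that were higher at 6 h are known for short sequences in their promoters, and 2 windows for each of 3 sets are shown so that those sequences can be seen beside the values. Each window runs from 250 bases before to 50 after the transcription start of RefSeq on GRCh38.p14, in the direction of the gene. Capitals mark the matched letters. The first pair holds TGATGNAA, the core of the C/EBP-ATF response element, at -209 in CHAC1 and -68 in ASNS, counted from the start.
CHAC1 (chr15:40953221-40953520, plus strand): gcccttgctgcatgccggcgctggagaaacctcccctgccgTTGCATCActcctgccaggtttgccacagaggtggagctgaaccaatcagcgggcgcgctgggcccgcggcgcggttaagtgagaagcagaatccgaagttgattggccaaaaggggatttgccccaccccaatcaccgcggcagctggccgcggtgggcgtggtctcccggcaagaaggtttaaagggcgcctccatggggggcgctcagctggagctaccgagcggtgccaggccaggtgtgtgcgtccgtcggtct
ASNS (chr7:97872359-97872658, minus strand): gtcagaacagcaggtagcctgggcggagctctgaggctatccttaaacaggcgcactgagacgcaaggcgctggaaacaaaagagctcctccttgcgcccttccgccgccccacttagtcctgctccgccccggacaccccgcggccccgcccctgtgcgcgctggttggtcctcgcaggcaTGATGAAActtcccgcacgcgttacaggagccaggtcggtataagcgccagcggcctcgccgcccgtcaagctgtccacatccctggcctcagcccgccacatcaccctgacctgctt
The next pair holds the CArG box, the sequence that SRF binds, at -173 in TPM4 and -94 in ACTG1.
TPM4 (chr19:16067288-16067587, plus strand): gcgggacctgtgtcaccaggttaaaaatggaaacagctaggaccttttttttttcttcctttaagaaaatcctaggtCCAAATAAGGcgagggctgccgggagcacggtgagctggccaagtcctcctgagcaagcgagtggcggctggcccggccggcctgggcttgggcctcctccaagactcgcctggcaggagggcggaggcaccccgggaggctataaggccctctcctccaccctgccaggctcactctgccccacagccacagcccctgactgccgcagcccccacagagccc
ACTG1 (chr17:81512750-81513049, minus strand): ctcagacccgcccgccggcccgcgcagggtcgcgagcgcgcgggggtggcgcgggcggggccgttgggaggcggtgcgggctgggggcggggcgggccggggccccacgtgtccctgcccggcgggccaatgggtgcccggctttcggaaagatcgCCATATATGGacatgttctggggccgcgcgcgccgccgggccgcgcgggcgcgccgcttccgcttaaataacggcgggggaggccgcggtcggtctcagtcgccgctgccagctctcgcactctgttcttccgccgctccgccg
The last pair holds the consensus NF-kB site, with 2 matches in TNFAIP3, the first at -67, and 1 at -73 in IL6.
TNFAIP3 (chr6:137867009-137867308, plus strand): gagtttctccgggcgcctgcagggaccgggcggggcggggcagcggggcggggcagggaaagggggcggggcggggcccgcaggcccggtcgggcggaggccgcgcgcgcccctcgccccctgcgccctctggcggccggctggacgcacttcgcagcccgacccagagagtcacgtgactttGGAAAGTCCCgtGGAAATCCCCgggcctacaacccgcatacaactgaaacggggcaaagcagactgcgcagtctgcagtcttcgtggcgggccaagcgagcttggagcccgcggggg
IL6 (chr7:22726950-22727249, plus strand): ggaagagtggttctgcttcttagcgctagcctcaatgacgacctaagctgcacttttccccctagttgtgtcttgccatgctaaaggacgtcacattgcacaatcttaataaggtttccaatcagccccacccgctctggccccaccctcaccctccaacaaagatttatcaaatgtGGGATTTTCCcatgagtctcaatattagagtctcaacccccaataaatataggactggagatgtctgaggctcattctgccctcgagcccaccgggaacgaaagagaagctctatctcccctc

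Values are CPM, counts per 1000000 with TMM scaling, and changes are differences of log2(CPM + 0.5), 6 h minus 0 h. A gene was measured when its mean count over the 6 libraries was at least 50, which held for 11909 of 52992 genes. In tet-control, 289 genes were at least 2-fold higher at 6 h (2.43% of those measured) and 265 were at least 2-fold lower (2.23%). At 1.5-fold, 890 were higher (7.47%) and 919 lower (7.72%); with plain CPM, which moves the median of all genes from -0.01 to -0.09, the split was 694 higher and 1204 lower. The tet-ZFP36L1 line at 6 h against its own 0 h had 250 genes 2-fold higher (2.1%) and 647 lower (5.43%), and at 1.5-fold 1082 higher (9.09%) and 1853 lower (15.6%). The libraries held 20739025 to 21380480 estimated counts. ZFP36L1 itself measured 233.8 and 223.3 CPM in tet-control before and after 6 h, and 220.2 and 3127 CPM in tet-ZFP36L1, as the labels say. The mesenchymal markers VIM, FN1, CDH2, ZEB1 and SPARC were all measured, and FN1 at 0 h stood at 381.9 CPM in tet-control and 9908 CPM in tet-ZFP36L1, so the lines differ before any drug. Of the urothelial markers only CD44, of 7 basal genes, and PPARG, FOXA1, KRT8 and KRT18, of 11 luminal ones, reached that level, so the labelled tissue of origin shows few of its defining markers. The blood cell markers PTPRC, CD3E, LYZ and HBB stood between 0 and 6 counts in each library. CD68 went from 21 to 128 counts in tet-control, but shares 77.3% of its 31-base words with another gene. The endothelial markers listed had no measured member, nor had the smooth muscle markers DES, MYH11, CNN1 and ACTG2, which stood between 0 and 39 counts in each library.

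The 2 lines share no library in these comparisons. The tet-ZFP36L1 line shows which changes appear again when drug, time and any handling recur together with the transgene present. Of the 289 genes higher in tet-control, 85 were also 2-fold higher in tet-ZFP36L1, which is 29.4% of the tet-control list and 34.0% of the tet-ZFP36L1 list. Of the 265 lower genes, 109 were lower in both, 41.1% of the tet-control list and 16.8% of the tet-ZFP36L1 list. In the opposite direction by 2-fold were 12 of the higher genes (4.15%) and 10 of the lower genes (3.77%). Of all measured genes, 5.43% were 2-fold lower and 2.1% were 2-fold higher in tet-ZFP36L1. Counting sign alone, 84.1% of the higher and 86.8% of the lower genes moved the same way in tet-ZFP36L1, where 48.9% of all measured genes had a change above 0. At 1.5-fold, the cut used for lists below, 368 genes were higher in both lines, 41.3% of the 890 higher in tet-control. Lower in both were 494, 53.8% of the 919 lower in tet-control. Across genes, Pearson's r between the 2 lines was 0.43 and Spearman's rho 0.44, as a description over genes that are not independent replicates. The plot of both lines shows the main sets.

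**Figure D1:**
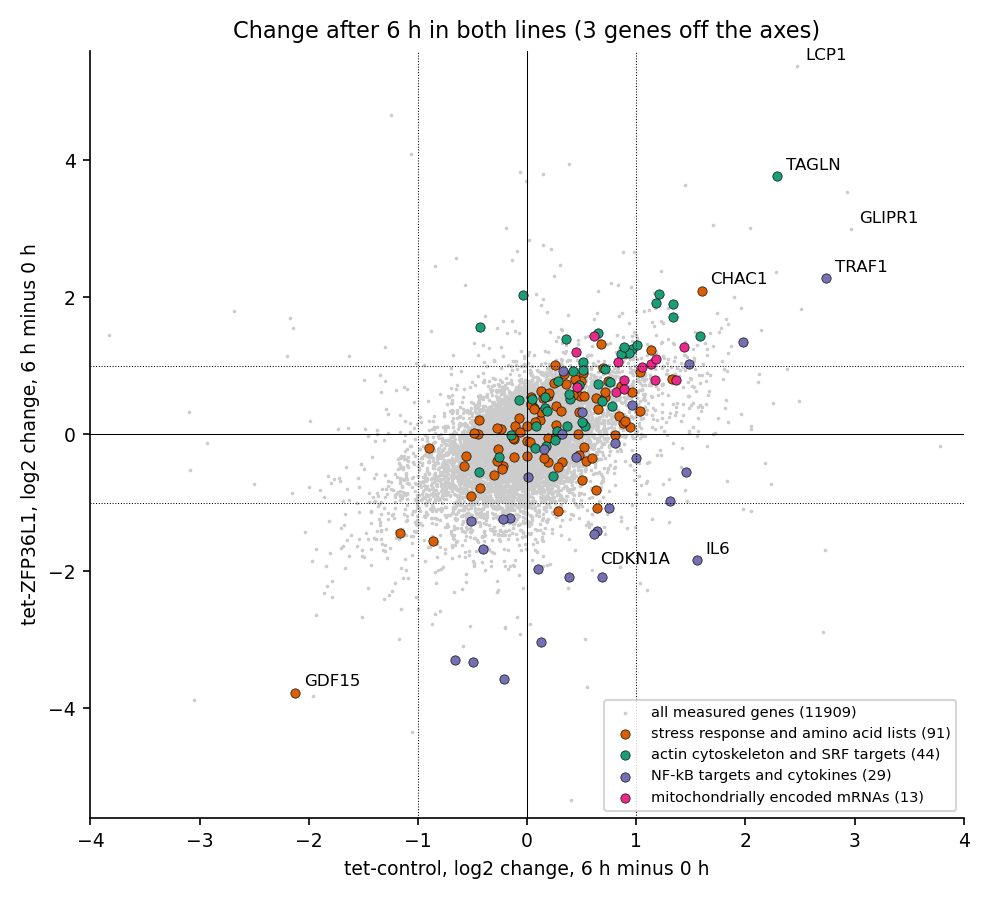
Log2 change at 6 h in tet-control (horizontal) against tet-ZFP36L1 (vertical), 1 point per measured gene, with dotted lines at 2-fold. Mitochondrially encoded mRNAs and actin genes lie mostly in the upper right, while many NF-kB targets, IL6 among them, are higher in tet-control and lower in tet-ZFP36L1; 3 genes lie off the axes.

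Mitochondrially encoded mRNAs, the messages for subunits of the respiratory chain and ATP synthase made from mitochondrial DNA, were higher at 6 h as a set. Together they held 1.40% of gene counts at 0 h in tet-control, 2.71% at 6 h and 1.31% at 24 h. The sum went from 14033 to 28779 CPM, a change of 1.04 and a fold of 2.05. All 13 were above their 0 h level and 11 were at least 1.5-fold higher, with a median change of 0.89, against -0.01 over all genes. The largest changes were those of MT-ND1, a complex I subunit (chromosome M, 3307 to 4262), and MT-CYB, the cytochrome b of complex III. MT-ND1 measured 513.5, 1392 and 501.9 CPM in turn, a change of 1.44 (1.41 to 1.47) at 6 h. MT-CYB was at 562.1, 1450.2 and 595.4 CPM at 0, 6 and 24 h, a change of 1.37 (1.34 to 1.40). MT-CO1, the catalytic subunit of cytochrome oxidase, went from 4182 to 9430.4 CPM and was at 3942 CPM at 24 h. The smallest changes were in MT-ND3, at 202.5 and 278.2 CPM (0.46), and MT-ATP8, at 8.44 and 11.7 CPM (0.44, interval 0.17 to 0.72). MT-ND6, which lies on the other strand from the rest, went from 56.0 to 86.1 CPM (0.62; 0.57 on the deposited TPM, below 1.5-fold). The 24 h library of tet-control was at or near the 0 h level for the set, with a median difference of -0.04.

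The same set was higher in tet-ZFP36L1 at 6 h, where all 13 were at least 1.5-fold higher with a median of 0.98. Its share of gene counts there was 1.30%, 2.24% and 2.18% for 0, 6 and 24 h. In CPM the sum in that line was 12946, 23001 and 19525, and MT-ND1 stood at 484.0, 1166 and 786.0, so the 24 h library lay between the others. MT-CO1, MT-CO2, MT-ATP6 and MT-ND2 share at least 50% of their 31-base words with another gene, mostly nuclear copies of mitochondrial DNA, so reads may be split between them. With the 386 listed nuclear copies added, the sum went from 14929 to 30605 CPM in tet-control, and its change was still 1.04. The mitochondrial ribosomal RNAs MT-RNR2 and MT-RNR1 changed by 0.66 and 0.55.

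**Figure D2:**
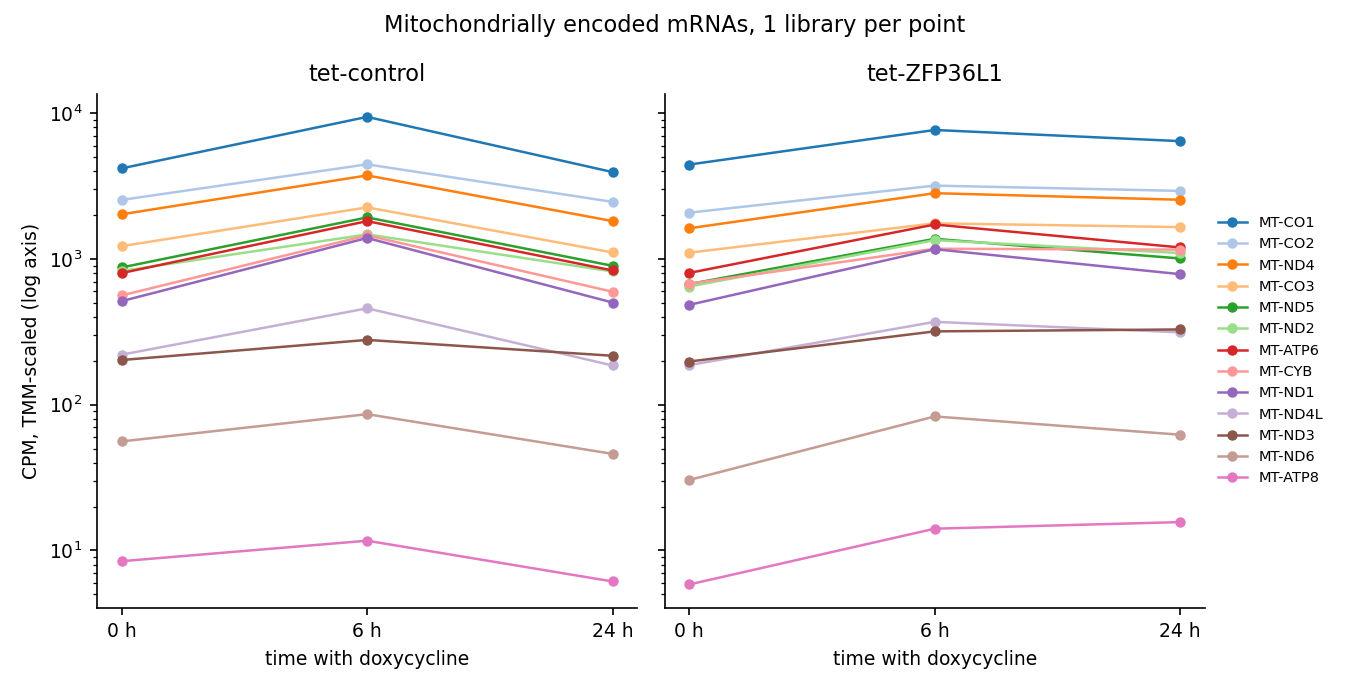
CPM of the 13 mitochondrially encoded mRNAs on a log axis against time with doxycycline, tet-control left and tet-ZFP36L1 right, 1 library per point. All 13 are above their 0 h level at 6 h in both lines, and in tet-control they are back near it at 24 h.

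Nuclear genes for mitochondria did not follow. Of 73 measured nuclear-encoded respiratory chain subunits, 0 were 1.5-fold higher and 0 lower, their median was -0.19 and 7 were above 0; in tet-ZFP36L1 the median was -0.01. NDUFA2, an accessory complex I subunit, was at 46.1 CPM at 0 h and 32.3 at 6 h, the lowest change of that list at -0.51 (-0.65 to -0.36). Mitochondrial ribosomal proteins, the partners of the ribosomal RNA that tetracyclines bind, had a median of -0.15 with 0 of 75 higher and 4 lower. Among these 4, MRPL30 went from 24.3 to 9.74 CPM (-1.28) but stood at 17.7 and 18.0 CPM in tet-ZFP36L1, a change of 0.02. Mitochondrial chaperones and proteases, which rise in the mitochondrial unfolded protein response, had a median of 0.01 (mean -0.01), with 0 of 21 past 1.5-fold either way. PITRM1, a protease of the matrix, was the highest of them at 74.2 and 99.9 CPM (0.43). Factors that keep and express mitochondrial DNA had a median of 0.06 and 0 of 28 past 1.5-fold; the mitochondrial RNA polymerase POLRMT was at 92.0 and 72.1 CPM (-0.35). Mitochondrial tRNA synthetases had a median of -0.06 with 0 of 17 past it.

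Genes of the integrated stress response were split. Of 27 measured regulators and targets, 10 were at least 1.5-fold higher and 2 lower, with a median of 0.34; in tet-ZFP36L1 5 were higher and 5 lower, with a median of 0.13. CHAC1, a glutathione-degrading enzyme induced by ATF4, measured 3.57, 11.9 and 4.0 CPM over 0, 6 and 24 h of tet-control. The tet-ZFP36L1 libraries held 4.08, 19.1 and 6.22 CPM. Its changes at 6 h were 1.60 (1.26 to 1.95) and 2.10, so the 6 h library was the highest of its line in both. DDIT3, the transcription factor CHOP, was at 7.35, 14.6 and 9.62 CPM in tet-control (0.94, interval 0.67 to 1.22) and at 13.5 and 14.5 CPM in tet-ZFP36L1 cells at 0 and 6 h (0.11). PPP1R15A, the eIF2 alpha phosphatase subunit GADD34, went from 33.3 to 61.7 CPM (0.88), and ATF3, a stress-induced repressor, from 4.92 to 9.63 CPM (0.90). ATF4 mRNA, whose product is controlled largely at translation, was at 408.4 and 466.6 CPM (0.19).

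GDF15 was 1 of the 2 members that were 1.5-fold lower, while 21 of the 27 were above 0. This stress cytokine, a marker of mitochondrial disease in blood, lies on chromosome 19 (18374731 to 18389176, plus strand). It measured 39.7, 8.72 and 24.9 CPM over 0, 6 and 24 h of tet-control, and 18.4, 0.88 and 2.15 CPM in tet-ZFP36L1. The changes at 6 h were -2.12 (-2.35 to -1.89) and -3.77, and the 6 h library was the lowest of each line. KLHL24, a ubiquitin ligase adaptor, was also lower in both, at 8.29 and 3.42 CPM in tet-control (-1.16) and 20.5 and 7.21 CPM in tet-ZFP36L1 (-1.45), but on the deposited TPM its change in tet-control was -0.25.

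Amino acid transporters had the second highest median of the lists, 0.48, with 8 of 20 members higher and 1 lower. Only 12 of the 20 were above 0, and the mean was 0.26. SLC7A11, the cystine importer, was at 26.5, 67.3 and 26.7 CPM in tet-control cells at 0, 6 and 24 h (1.33, interval 1.19 to 1.47) and at 28.5 and 50.3 CPM in tet-ZFP36L1 cells at 0 and 6 h (0.81). SLC7A5, the leucine transporter LAT1, was at 329.5, 677.3 and 304.7 CPM (1.04), against 227.9 and 288.3 CPM in tet-ZFP36L1 (0.34). Its partner chain SLC3A2 went from 134.2 to 225.3 CPM (0.75), with a like change of 0.78 in tet-ZFP36L1. SLC7A1, an arginine and lysine importer, was at 284.2 and 498.2 CPM in tet-control (0.81) and at 210.8 and 208.9 CPM in tet-ZFP36L1 (-0.01). SLC1A3, a glutamate transporter, was the lower member, at 3.03 and 1.44 CPM (-0.86). The median of this list in tet-ZFP36L1 was 0.01, with 5 higher and 4 lower.

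Enzymes of amino acid synthesis had a median of 0.06, with 2 of 24 higher and 1 lower. ASNS, asparagine synthetase (chromosome 7, 97852118 to 97872542, minus strand), was the highest, at 74.9, 164.6 and 73.2 CPM in tet-control cells at 0, 6 and 24 h. In tet-ZFP36L1 it stood at 64.8, 153.2 and 75.6 CPM. The changes at 6 h were 1.13 (1.04 to 1.22) and 1.24, and the 0 and 24 h libraries of both lines lay within 64.8 to 75.6 CPM. PSAT1, of the serine pathway, went from 139.0 to 215.1 CPM (0.63; 0.55 on the deposited TPM, below 1.5-fold). Cytosolic tRNA synthetases had a median of 0.25, with 19 of 20 above 0 and 3 past 1.5-fold. CARS, which charges the cysteine tRNA, was at 62.4 and 121.6 CPM (0.96), IARS, for isoleucine, at 284.4 and 466.8 CPM (0.71), and GARS, for glycine, at 261.9 and 424.5 CPM (0.70). The 3 were also past 1.5-fold in tet-ZFP36L1, where the list's median was 0.57 and 9 were higher.

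Of the 20 higher members of these 4 lists, 7 held TGATGNAA on either strand of the promoter window (35.0%): ATF3, CHAC1, ASNS, SLC7A1, SLC3A2, CARS and IARS. The share was 21.9% over the 73 listed members with a window, 1.46% over 9092 windows of measured genes and 3.67% over all 27305 windows. The lists were written from known ATF4 targets, so this share is not independent evidence, and a match is not a binding site.

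Other stress pathways are given next. Endoplasmic reticulum chaperones had a median of 0.12 with 2 of 26 higher and 1 lower; HYOU1, a chaperone of that compartment, went from 7.60 to 15.9 CPM (1.02) and from 11.5 to 13.01 CPM in tet-ZFP36L1 (0.17). Cytosolic heat shock proteins had a median of 0.12, with 1 of 18 higher (HSPA1A, an inducible HSP70, 229.1 to 346.7 CPM, with 73.6% of its words shared and a change of 0.54 on the deposited TPM, below 1.5-fold) and 2 lower (among them HSPB1, 142.2 to 89.9 CPM). NRF2 targets had 5 of 20 higher and 2 lower, with a median of -0.16 and a mean of 0.12. HMOX1, heme oxygenase, was at 247.3, 584.3 and 284.6 CPM at 0, 6 and 24 h (1.24, interval 1.19 to 1.29), against 88.8 and 121.2 CPM in tet-ZFP36L1 (0.45). TXNRD1, thioredoxin reductase, went from 477.5 to 969.9 CPM in tet-control (1.02) and went from 358.3 to 234.6 CPM in tet-ZFP36L1 (-0.61). FTL, a ferritin chain on the NRF2 and iron lists, went from 784.5 to 460.6 CPM (-0.77). In the iron list, the exporter SLC40A1 went from 7.10 to 2.14 CPM (-1.53) and the reductase STEAP3 from 8.79 to 26.1 CPM (1.52); their changes in tet-ZFP36L1 were -0.44 and 0.46. Of 24 p53 targets, 3 were higher and 2 lower, with a median of -0.08 and a mean of 0.02.

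Few cell-cycle genes passed 1.5-fold in tet-control at 6 h. In tet-ZFP36L1 the median of G1/S and E2F targets was -0.25, with 0 of 44 higher and 9 lower. In tet-control it was -0.24, with 5 of 44 above 0, 0 past 1.5-fold upward and 1 downward. E2F2 was the lower member, at 21.4, 14.1 and 21.1 CPM at 0, 6 and 24 h (-0.59). MCM2, of the replicative helicase, was at 274.1, 182.7 and 265.8 CPM (-0.58, interval -0.65 to -0.52), and at 204.9 and 147.5 CPM in tet-ZFP36L1 (-0.47). Genes of G2/M and mitosis had a median of 0.04 in tet-ZFP36L1, with 0 of 51 higher and 6 lower. In tet-control their median was -0.04, with 1 of 51 higher and 0 lower. That gene was MKI67, which encodes the Ki-67 antigen, at 716.2, 1190.5 and 1000.7 CPM (0.73), and at 801.5 and 1171 CPM in tet-ZFP36L1 (0.55). Of 19 cyclins and CDK regulators, 2 were higher and 2 lower in tet-control, with a median of -0.15. In tet-ZFP36L1 0 were higher and 8 lower, with a median of -0.47. Among them, CDK6 went from 167.6 to 315.4 CPM (0.91) in tet-control and from 149.0 to 158.2 CPM in tet-ZFP36L1 (0.09). CDKN1A, the inhibitor p21, was at 48.8, 74.1 and 57.2 CPM in tet-control (0.60, interval 0.48 to 0.71) and at 83.1, 20.6 and 22.8 CPM in tet-ZFP36L1 (-1.98); its change in tet-control was 0.48 on the deposited TPM and 0.52 with plain CPM, below 1.5-fold. CCND1 was at 705.5 and 613.1 CPM (-0.20). Housekeeping genes had a median of -0.003 and 0 of 26 past 1.5-fold.

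**Figure D3:**
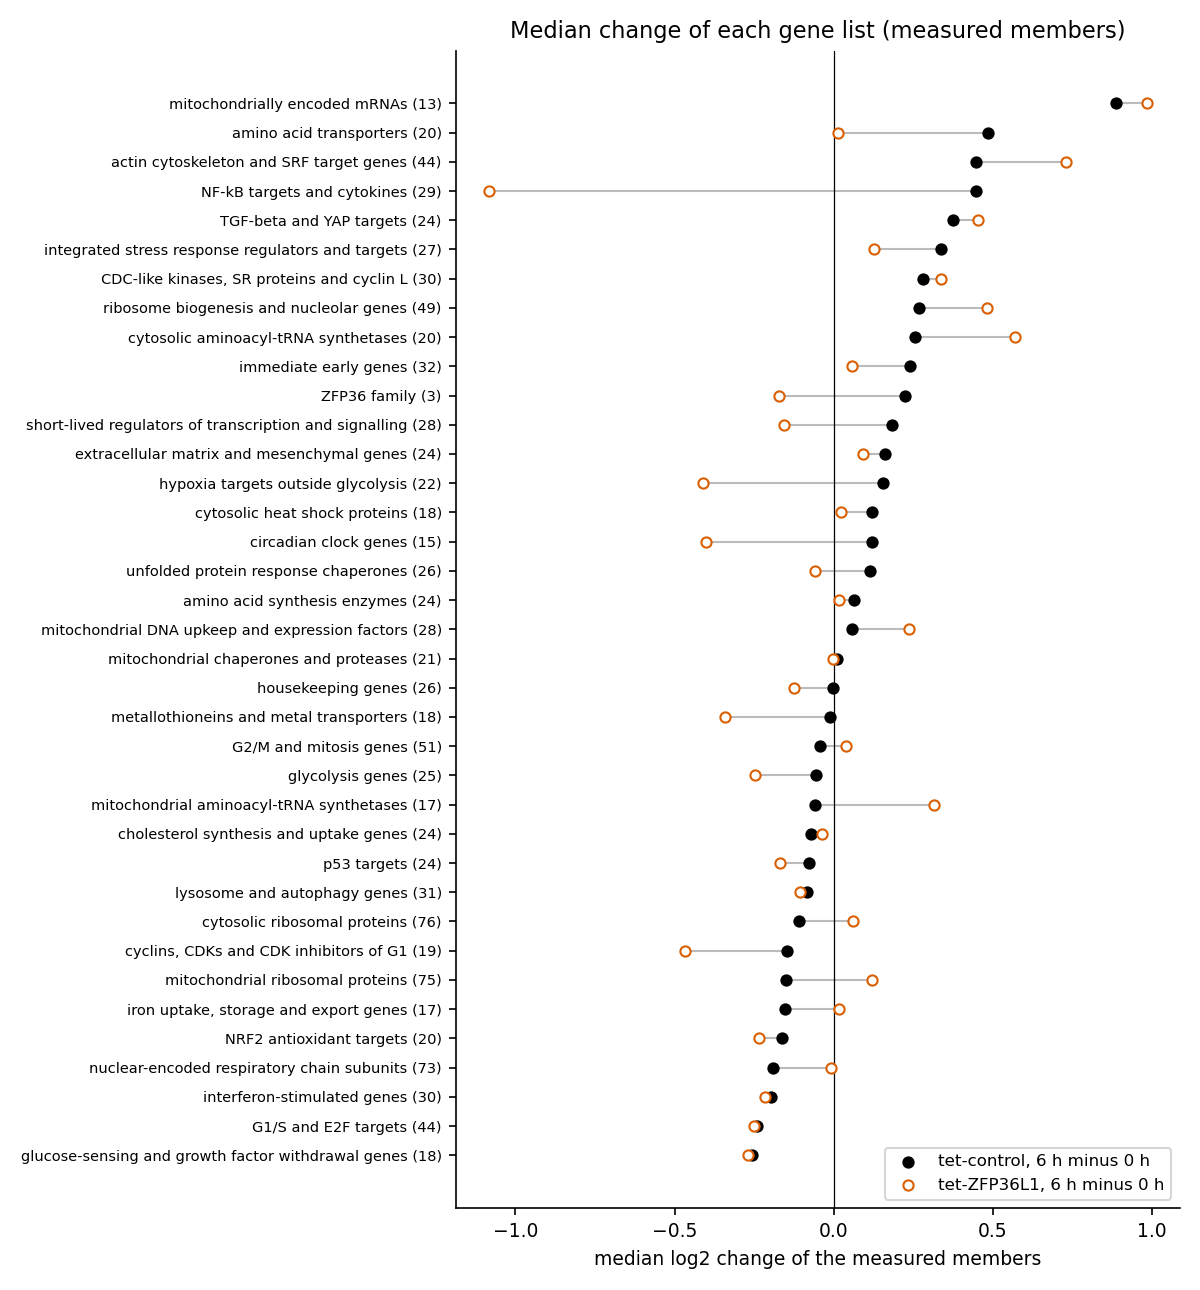
Median log2 change at 6 h of each gene list in tet-control (filled) and tet-ZFP36L1 (open), with the number of measured members in brackets. Mitochondrially encoded mRNAs are at the top in both lines, at 0.89 and 0.98, while NF-kB targets stand at 0.45 and -1.08.

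The genes with the largest repeated increases were of mixed kinds. GLIPR1, a secreted protein of the CAP family (chromosome 12, 75480680 to 75503853, plus strand), was at 20.01, 159.7 and 21.4 CPM in tet-control cells at 0, 6 and 24 h. In tet-ZFP36L1 it stood at 46.6, 375.9 and 90.1 CPM. The changes at 6 h were 2.97 (2.82 to 3.11) and 2.998, and in each line the 6 h library was the highest. TRAF1, a TNF receptor adaptor and NF-kB target (chromosome 9, 120902393 to 120929173, minus strand), was at 34.6, 233.8 and 34.1 CPM in tet-control (2.74, interval 2.63 to 2.85). In tet-ZFP36L1 it stood at 12.8, 64.3 and 71.7 CPM, so there the 24 h library was as high as the 6 h one. FGF1, a fibroblast growth factor, went from 1.19 to 12.4 CPM (2.93) and from 5.50 to 69.4 CPM in tet-ZFP36L1 (3.54). LCP1, the actin bundler plastin-2, went from 0.60 CPM, on 12 counts, to 5.56 CPM (2.47) and from 2.41 to 120.5 CPM in tet-ZFP36L1 (5.38). NABP1, a single-stranded DNA-binding protein, was at 24.7 and 86.1 CPM in tet-control (1.78) and 27.2 and 80.8 CPM in tet-ZFP36L1 (1.56); it was named after its values were seen. SGK1, a serum- and glucocorticoid-regulated kinase, was at 41.6, 106.4 and 47.2 CPM (1.34, interval 1.23 to 1.46), with 1.32 in tet-ZFP36L1. It was 1 of 9 immediate early genes of 32 that were higher, with 0 lower and a list median of 0.24; in tet-ZFP36L1 11 were higher and 8 lower, with a median of 0.06, and 6 were higher in both.

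Part of the actin cytoskeleton genes were higher in both lines. TAGLN, the actin-binding protein transgelin (chromosome 11, 117199321 to 117204782, plus strand), was at 79.1, 389.5 and 132.7 CPM in tet-control cells at 0, 6 and 24 h. In tet-ZFP36L1 it stood at 27.8, 385.7 and 222.7 CPM. The changes at 6 h were 2.29 (2.21 to 2.37) and 3.77, and its 24 h level lay between the others in each line. In a list of actin cytoskeleton and SRF target genes, written after such genes were seen among the largest changes, 17 of 44 were higher and 0 lower, with a median of 0.45 and 38 above 0. In tet-ZFP36L1 23 were higher and 1 lower, with a median of 0.73, and 15 were higher in both. Of all measured genes 1.5-fold higher in tet-control, 41.3% were also 1.5-fold higher in tet-ZFP36L1. ACTG1, cytoplasmic gamma actin, went from 3577 to 5859 CPM (0.71) and was at 3609 CPM at 24 h. MYH9, the heavy chain of non-muscle myosin, was at 1572, 3160.1 and 1728 CPM (1.01). CALD1, caldesmon, was at 199.1, 598.2 and 167.4 CPM (1.58, interval 1.53 to 1.64), and ZYX, a focal adhesion protein, at 274.0, 692.5 and 308.5 CPM (1.34). TPM4, a tropomyosin, was at 626.5, 1194 and 574.0 CPM (0.93). TAGLN and CALD1 are also expressed in smooth muscle, whose markers DES, MYH11, CNN1 and ACTG2 held at most 26 counts in any tet-control library. Of 24 targets of TGF-beta and YAP, which include TAGLN, 8 were higher and 2 lower, with a median of 0.37; ANKRD1, a YAP target, was at 13.1, 42.3 and 12.7 CPM (1.65) and TGFB2, a ligand, at 17.7, 56.9 and 18.9 CPM (1.66). A CArG box was in 4 of the 14 higher actin genes with a window (ACTG1, TPM4, FLNA and FHL2), in 15.4% of the 39 listed genes with a window and in 0.93% of windows of measured genes. The list names SRF targets, and list and motif were chosen after values were seen. These shares are therefore not independent evidence, and a match is not a binding site.

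NF-kB targets leaned upward in tet-control and downward in tet-ZFP36L1. In tet-control 13 of 29 were higher and 1 lower, with a median of 0.45; in tet-ZFP36L1 4 were higher and 17 lower, with a median of -1.08. IL6, the inflammatory cytokine (chromosome 7, 22725884 to 22732002, plus strand), was at 44.6, 132.6 and 44.0 CPM in tet-control cells at 0, 6 and 24 h, and at 162.4, 45.1 and 32.1 CPM in tet-ZFP36L1. The changes at 6 h were 1.56 (1.45 to 1.67) and -1.84. TNFAIP3, the NF-kB inhibitor A20, was higher in both, at 26.6, 75.2 and 24.9 CPM in tet-control (1.48, interval 1.34 to 1.62) and at 153.0, 312.8 and 216.6 CPM in tet-ZFP36L1 (1.03). BCL2A1, a survival protein of the BCL2 family, was at 3.33 and 14.6 CPM in tet-control (1.98), with 1.35 in tet-ZFP36L1. TRAF1, TNFAIP3 and BCL2A1 were the 3 members higher in both lines, and 1 member was lower in both. Another 6, IL6 and CXCL8 among them, were 1.5-fold higher in tet-control and 1.5-fold lower in tet-ZFP36L1. Of all 890 genes 1.5-fold higher in tet-control, 41.3% were higher and 7.19% lower by 1.5-fold in tet-ZFP36L1. BIRC3, an inhibitor of apoptosis, was at 199.1, 398.3 and 179.7 CPM (1.00), with -0.34 in tet-ZFP36L1. CXCL8, the chemokine IL-8, was at 221.5, 356.4 and 156.9 CPM (0.69), with -2.08 in tet-ZFP36L1. The lines did not start level: IL6 at 0 h was 44.6 CPM in tet-control and 162.4 CPM in tet-ZFP36L1. The consensus NF-kB site was in 7 of 12 higher members with a window, in 12 of the 24 listed members with one and in 6.48% of windows of measured genes. The list holds known NF-kB targets, so these shares are not independent evidence, and a match is not a binding site.

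Interferon-stimulated genes leaned the other way in tet-control, with 2 of 30 higher and 8 lower and a median of -0.20. In tet-ZFP36L1 2 were higher and 4 lower, with a median of -0.22, and 3 were lower in both. Over all measured genes, 7.47% were 1.5-fold higher and 7.72% lower in tet-control, and 9.09% and 15.6% in tet-ZFP36L1. IFIT1, an antiviral RNA-binding protein, was at 7.70, 1.55 and 8.35 CPM in tet-control (-1.998, interval -2.45 to -1.55) and at 10.9 and 6.17 CPM in tet-ZFP36L1 (-0.77). HERC5, the ISG15 ligase, was at 30.1, 16.2 and 29.4 CPM (-0.88). Genes of glucose sensing and growth factor withdrawal, among them the FOXO target CCNG2, had 1 of 18 higher and 7 lower, with a median of -0.26; CCNG2 was at 14.6, 7.54 and 16.8 CPM (-0.91) and FOXO4 at 5.56, 2.09 and 3.64 CPM (-1.23). GABARAPL1, an autophagosome protein, was at 29.3, 11.7 and 26.3 CPM (-1.29).

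Among genes of metabolism and growth, HK2, a hexokinase at the entry to glycolysis, was at 60.3, 143.2 and 65.3 CPM in tet-control cells at 0, 6 and 24 h (1.24, interval 1.14 to 1.34), and at 78.0, 46.9 and 30.1 CPM in tet-ZFP36L1 (-0.73). It was the 1 higher gene of 25 for glycolysis, against 3 lower ones and a median of -0.06. Among hypoxia targets, 6 of 22 were higher and 1 lower, with a median of 0.15, while in tet-ZFP36L1 3 were higher and 9 lower, with a median of -0.41. LOX, the collagen crosslinking enzyme lysyl oxidase, was at 9.18, 31.4 and 11.5 CPM in tet-control (1.72) and at 23.5 and 23.8 CPM in tet-ZFP36L1 cells at 0 and 6 h (0.02). ADM, the peptide adrenomedullin, was higher in both lines, at 19.2 and 42.6 CPM (1.13) and at 8.89 and 16.1 CPM (0.82). Genes of ribosome biogenesis had a median of 0.27, with 44 of 49 above 0 but 2 past 1.5-fold; RRP12, of small subunit export, was at 78.0 and 130.0 CPM (0.73). Cytosolic ribosomal proteins had a median of -0.11 and 0 of 76 past 1.5-fold. Cholesterol genes had 0 of 24 higher and 1 lower at 6 h, TM7SF2, a sterol reductase, at 30.7 and 15.1 CPM. Of 15 clock genes, 3 were higher and 1 lower in tet-control, and 2 higher and 7 lower in tet-ZFP36L1, with medians of 0.12 and -0.40. PER2, a repressor of the clock, was at 11.5, 18.9 and 11.8 CPM (0.69), with 0.62 in tet-ZFP36L1. On the deposited TPM none of the 3 higher clock genes passed 1.5-fold: PER2 changed by 0.31, ARNTL by 0.16 and BHLHE41 by -0.48.

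GPRC5B was among the genes with the largest repeated decreases. It encodes an orphan receptor (chromosome 16, 19856691 to 19886167, minus strand) and was at 46.8, 13.2 and 32.5 CPM in tet-control cells at 0, 6 and 24 h and at 62.9, 13.9 and 39.3 CPM in tet-ZFP36L1. The changes at 6 h were -1.79 (-1.99 to -1.59) and -2.14. THRA, a thyroid hormone receptor, was at 14.05, 3.58 and 7.69 CPM (-1.83), with -2.21 in tet-ZFP36L1. PPL, the cell junction protein periplakin, was at 8.59 and 1.87 CPM (-1.94), MGAT3, a glycosyltransferase, at 10.7 and 2.57 CPM (-1.86), and FGFR4, a fibroblast growth factor receptor, at 19.0 and 5.62 CPM (-1.67); their changes in tet-ZFP36L1 were -2.64, -2.32 and -1.95. RHOB, a small GTPase with a short-lived mRNA, was at 87.3, 27.0 and 49.4 CPM (-1.67), with -1.33 in tet-ZFP36L1. PPARG, on the luminal list, was at 16.6, 6.42 and 10.9 CPM (-1.30), with -1.71 in tet-ZFP36L1. For each gene from GPRC5B to PPARG above, the 6 h library was the lowest of the 3 in tet-control. PPARG was the lowest of the 4 measured luminal markers. Their median was -0.06 in tet-control, with 2 above 0, and 0.05 in tet-ZFP36L1.

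**Figure D4:**
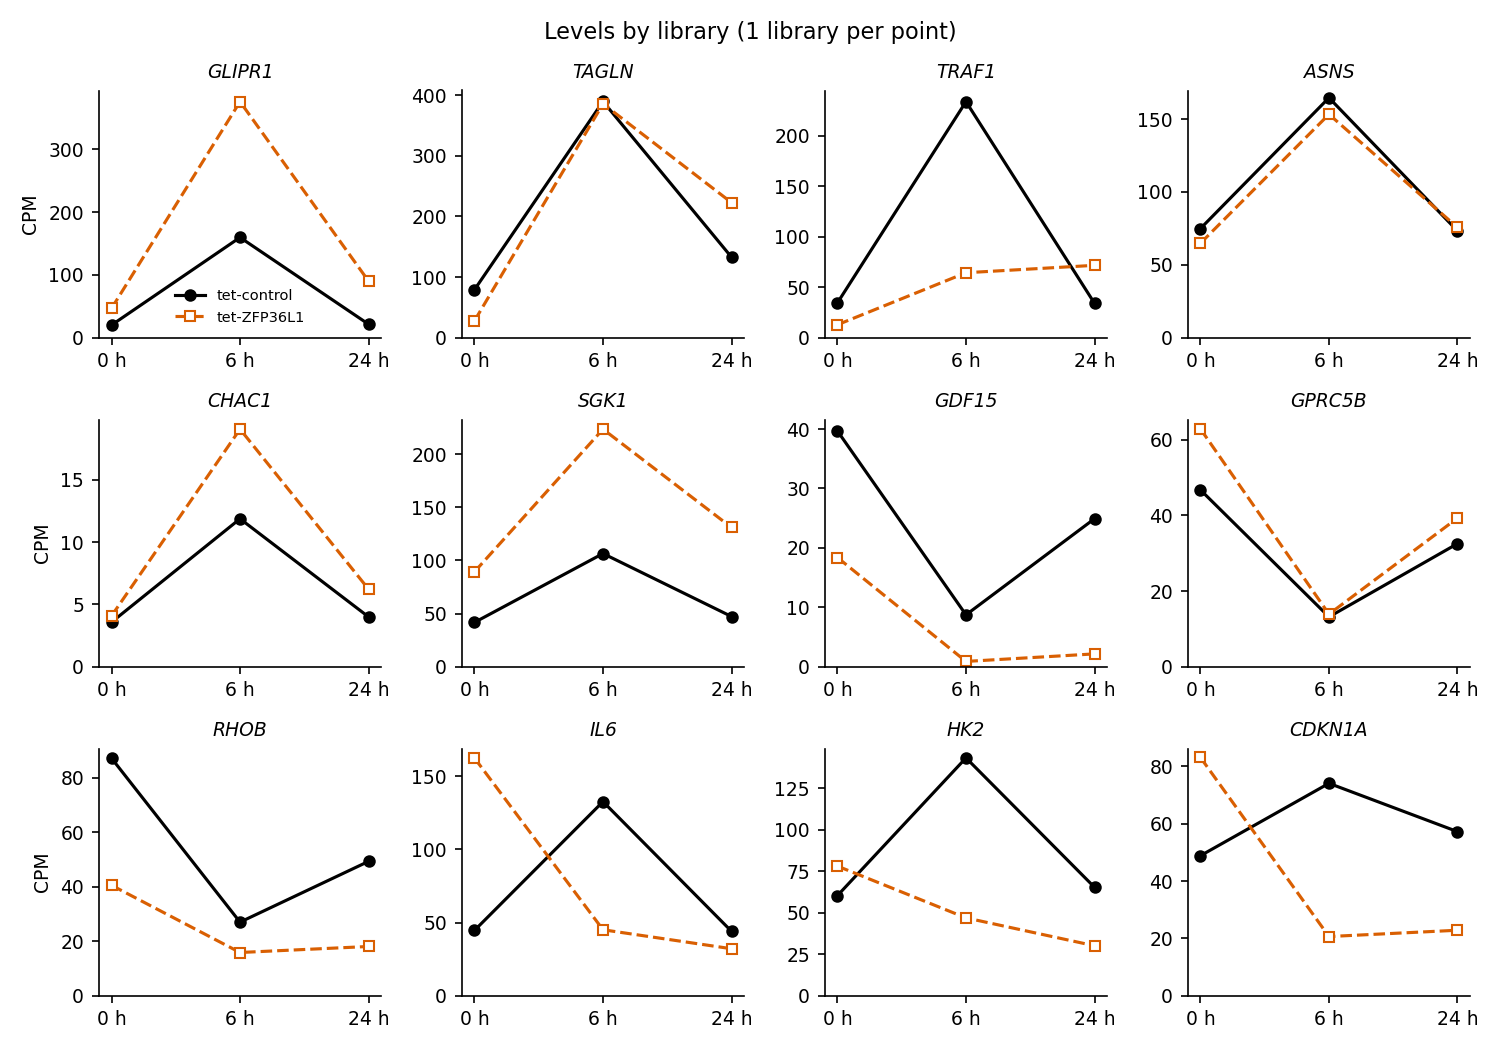
CPM of 12 genes against time with doxycycline in tet-control (filled, solid) and tet-ZFP36L1 (open, dashed), 1 library per point, each axis from 0. GLIPR1, TAGLN, ASNS, CHAC1 and SGK1 peak at 6 h in both lines, GDF15, GPRC5B and RHOB are lowest at 6 h in both, and IL6, HK2 and CDKN1A differ in direction between the lines.

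Some of the largest changes in tet-control were not repeated and rested on 1 annotated transcript whose estimated counts swung between libraries. CACHD1, with the largest decrease among the named genes, was at 10.1, 0.75 and 12.5 CPM at 0, 6 and 24 h (-3.09) and at 16.4 and 11.3 CPM in tet-ZFP36L1. TEAD1, a partner of YAP, was at 1.99, 13.5 and 43.8 CPM in tet-control (2.49) and at 20.8, 29.2 and 12.4 CPM in tet-ZFP36L1; its transcript TEAD1-203 carried 93.4% of the difference. For NUDT16 a like transcript held 634.0, 0.03 and 13.7 estimated counts over the tet-control libraries of 0, 6 and 24 h. On the deposited TPM, TEAD1 in tet-control went from 2.62 to 4.25 at 6 h and NUDT16 from 11.5 to 6.95. Both are smaller folds than in CPM. The CPM are sums over the matched transcripts of a gene, so dividing reads among those alone leaves them unchanged. CACHD1, TEAD1 and NUDT16 share 0.0%, 0.0% and 0.1% of their 31-base words with other genes. Transcripts without a match were left out, and their part in these CPM was not tested.

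Transcripts annotated as retaining an intron, which are often kept in the nucleus or degraded, were higher at 6 h. Of 2453 measured transcripts of this kind, 1230 were at least 1.5-fold higher (50.1%) and 137 lower, with a median change of 0.59. Among 20751 protein-coding transcripts, 3088 were higher (14.9%) and 3318 lower (16.0%), with a median of -0.03. Over all 28131 measured transcripts, 19.3% were higher and 14.6% lower. The share of retained-intron transcripts in the library was 3.50%, 4.80% and 3.70% for tet-control at 0, 6 and 24 h, and 3.34%, 4.17% and 3.98% in tet-ZFP36L1. In tet-ZFP36L1 at 6 h the median of retained-intron transcripts was 0.42, with 1025 higher (41.8%) and 289 lower. Higher in both lines were 778, which is 63.3% of the tet-control list and 75.9% of the other. Over transcripts of all types, those higher in both lines were 43.5% of the tet-control list and 42.6% of the other.

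**Figure D5:**
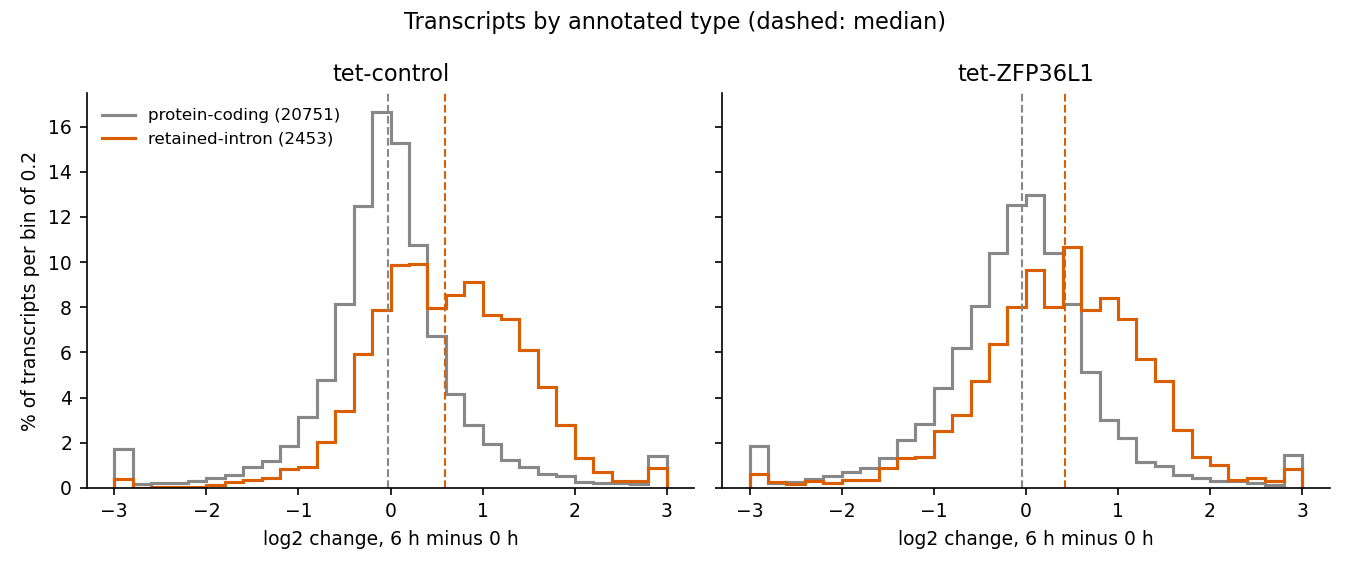
Share of transcripts in bins of 0.2 of the log2 change at 6 h, for protein-coding and retained-intron transcripts in each line, with dashed lines at the medians; the end bins also hold values beyond 3. Retained-intron transcripts are shifted to the right, to medians of 0.59 (tet-control) and 0.42 (tet-ZFP36L1), while protein-coding ones centre near 0.

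The shift was also there within genes. In 2082 genes with both kinds measured, the retained-intron transcripts changed by a median of 0.68 more than the coding transcripts of the same gene in tet-control at 6 h, and 83.0% of genes lay above 0. By 1.5-fold or more, 1141 genes were above and 92 below. The median was 0.14 in tet-control at 24 h, 0.43 in tet-ZFP36L1 at 6 h and 0.32 there at 24 h. The 4 genes given next had the largest difference in both lines among 809 with at least 100 estimated counts of each kind in every library, a rule chosen after values were seen. SRSF5, a splicing factor, had 122.8, 413.9 and 201.7 estimated counts on retained-intron transcripts at 0, 6 and 24 h in tet-control, and 1171, 804.4 and 1375 on coding ones. ARHGEF1, an exchange factor for RhoA, had 210.4, 786.1 and 352.4 on retained-intron transcripts and 2390.4, 1976 and 2250.2 on coding ones. ZNF692 had 265.1, 942.1 and 424.7 on retained-intron transcripts and 191.3, 121.9 and 131.8 on coding ones. AUP1, of lipid droplets, had 1912, 2837 and 2392 on retained-intron transcripts (0.68) and 542.5, 176.0 and 582.6 on coding ones (-1.47), so most of its difference lay in the coding counts. In tet-ZFP36L1 the retained-intron counts of these 4 genes were likewise higher at 6 h than at 0 h, by 0.70 to 1.86 on the log2 scale.

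Some genes that control splicing, a class known for retained introns, were also higher. In a list of CDC-like kinases, SR proteins and cyclin L that was chosen with these values known, 8 of 30 were higher and 0 lower, with a median of 0.28; in tet-ZFP36L1 9 were higher and 0 lower, and 7 were higher in both. CLK1, a kinase of SR proteins, was at 40.1, 72.2 and 40.4 CPM (0.84), CCNL2, cyclin L2, at 138.6, 249.5 and 152.1 CPM (0.85), and NKTR, a cyclophilin with SR repeats, at 55.7, 118.5 and 64.9 CPM (1.08). Several noncoding gene classes leaned upward as well, where 7.47% of all measured genes were 1.5-fold higher and 7.72% lower. Of 165 lincRNA genes, 36 were higher (21.8%) and 11 lower, with 38 and 12 in tet-ZFP36L1. Of 223 antisense genes, 49 were higher (22.0%) and 11 lower, with 47 and 17 in tet-ZFP36L1. Of 125 transcribed unprocessed pseudogenes, 40 were higher and 5 lower, and of 90 processed transcript genes, 30 and 2. Of 110 processed pseudogenes, 16 were higher and 14 lower. The sources used here do not give strand use in counting, so antisense genes may hold reads of their partners. The share of the 10 highest genes was 4.49% at 0 h and 5.39% at 6 h. Genes lower by 2-fold had a median GC content of 55.3%, against 48.7% of all genes and 49.6% of the higher ones. The part of these measures in the changes of single genes was not tested.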

How the data were processed

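RNA of J82 cells was sequenced in 6 libraries, 1 per line and time. The deposited tables hold, per transcript, estimated counts and TPM (transcript abundance per length and depth); per the submitters' processing notes the tools were kallisto and DESeq2 and the build hg19, with no versions given in the sources used here. TPM serves only as an alternative scale. Transcript identifiers were looked up in GENCODE 29 (GRCh38), whose coordinates are printed; 5.12% to 5.46% of estimated counts had no match and were left out. Gene sums of the estimated counts were rounded and scaled with TMM (edgeR 4.0.16, R 4.3.3), using genes whose mean count reached 10. Changes are log2(CPM + 0.5), for genes whose mean count reached 50. The pseudocount understates changes of low genes. With 1 library per group no test across genes was run; genes are called at 2-fold or, within lists, at 1.5-fold. Intervals for changes use counting error alone. The steps were tested on simulated data. Genes named are the 12 largest changes each way, the 10 largest repeated each way and up to 4 members per list, as far as the text uses them, plus 36 genes chosen after their values were seen. The comparison, the gene lists and their members were chosen with earlier results of these data known. The lists of actin genes and of splicing kinases, and the CArG and NF-kB motifs, were added after values were seen. All 175 genes named by the rule were checked for 31-base words shared with other genes, and 5 shared at least 50% of them. Alternatives were DESeq2 (1.42.0) size factors, plain CPM, TPM, other pseudocounts and other count minimums.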

Additional observations from a re-analysis of the deposited data

Results flagged for a closer look

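Some named genes moved in opposite directions at 6 h in the 2 lines, each by at least 1.5-fold. None of these differences between the lines was tested, since each group has 1 library. In tet-control and tet-ZFP36L1 respectively, IL6 changed by 1.56 and -1.84, CDKN1A by 0.60 and -1.98, and HK2 by 1.24 and -0.73. The clock genes BHLHE41 and ARNTL changed by 0.71 and 0.64 in tet-control and by -1.46 and -0.84 in tet-ZFP36L1, but on the deposited TPM their tet-control changes were -0.48 and 0.16. That of CDKN1A was then 0.48, below 1.5-fold. In the same order, SPIN4 changed by -2.69 and 1.80, and NUDT16 by -2.14 and 1.56. On the deposited TPM, NUDT16 in tet-control went from 11.5 to 6.95, a smaller fold than in CPM. For SPIN4 the 1 listed transcript went from 471.5 to 60.4 estimated counts in tet-control and from 92.8 to 330.9 in tet-ZFP36L1.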

How the results depend on the processing

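With no replicate, neither the spread between cultures nor any library's weight could be measured. No paired analysis was possible because each group has 1 library and no test was run. For 37 lists, 391 of 406 medians under the alternatives lay within the members' median counting error of those reported and 15 did not. Of the 406, 10 changed sign, in 6 lists whose reported medians were no further from 0 than 0.12: mitochondrial chaperones, mitochondrial DNA upkeep, amino acid synthesis, p53, clock and metal genes. For the mitochondrially encoded mRNAs the median was 0.81 with plain CPM and 0.84 with the deposited TPM, and for G2/M and mitosis genes it was -0.12 with plain CPM. Counts of genes depended on the minimum and on the pseudocount. With a mean count of at least 10, 498 genes were 2-fold and 1464 were 1.5-fold higher. With at least 200, 168 were 2-fold higher and 115 lower, 565 were 1.5-fold higher and 508 lower, and 52 higher and 49 lower genes were repeated. With a pseudocount of 5, 123 were 2-fold higher and 48 lower, 521 were 1.5-fold higher and 399 lower, and 34 and 18 were repeated. Of 2-fold calls, 71.9% were then upward, against 52.2% in the main setting. That share was 45.6% with protein-coding genes only, 42.5% with plain CPM and 48.5% with the deposited TPM. It was 56.2% with a mean count of at least 10 and 59.4% with at least 200. Of 1055 values for single genes, 830 lay within their counting error, 224 did not and 1 reversed: BHLHE41 changed by -0.48 with the deposited TPM. Of 157 single-gene calls at 1.5-fold, 1 was lost with DESeq2 size factors, 10 with plain CPM, 17 with the deposited TPM, 30 with a pseudocount of 5 (among them SLC1A3 at -0.32, E2F2 at -0.47, PER2 at 0.53, ATF3 at 0.56 and FOXO4 at -0.58) and 0 with 0.1. The filter on shared 31-base words and that on counts in both tet-control libraries were chosen after seeing the data.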
